A study of Mus musculus with 62 samples.

Results

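The step from week 6 to week 8 in the cachectic group was followed in 12 of the 62 libraries of the series, 7 at 8 weeks and 5 at 6 weeks. They were selected by treatment and time alone, and no measured value was used. The libraries came from the tibialis anterior, a shin muscle rich in fast fibres, of female mice that had received melanoma cells called cachectic (CAC). The same step in mock-injected mice (Con, 5 libraries at each week) was the reference for time without tumour cells, and a further reference was the step in mice given melanoma cells called non-cachectic (NCAC, 5 libraries at each week). The labels give an age of 2 months for every group. They name the strain C57BL6/J, whereas the text on the study's design names NCI Ath/nude mice, an athymic stock that lacks a normal thymus, and this conflict is not settled by the labels. The titles of the 7 CAC libraries at 8 weeks skip numbers, and the labels give no reason, no body weight, no tumour size and no name of the cell lines. Whether an animal was early or late in its own wasting is therefore not known, and p-values cover only the spread between these libraries.

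In cachexia, a complication of many cancers, muscle and fat waste away. In wasting muscle, inflammatory cytokines of the interleukin-6 family act through the transcription factor STAT3, and glucocorticoids and FOXO factors switch on ubiquitin ligases that mark muscle proteins for the proteasome. Metallothioneins, small metal-binding proteins, and acute-phase proteins are often induced at the same time, while genes of mitochondrial respiration decline. The question here was whether this programme, present at 6 weeks, moved further by 8 weeks.

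Values are TPM, transcripts per 1000000 transcripts of a library, corrected for length, as deposited. TPM keeps no read depth, so no counting interval could be given. A step is the mean of log2(TPM + 1) at 8 weeks minus that at 6 weeks, so a positive step is higher at 8 weeks, and the scale understates the step of weakly expressed genes. Each step was tested with limma on the libraries of its own groups over the 11264 genes that averaged 1 TPM or more, and calls were made at 0.05 after Benjamini-Hochberg adjustment.

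Libraries within the CAC groups lay far apart. The first principal component of the 22 CAC and Con libraries, with 62% of the variance, placed the CAC libraries between -3.14 and 67.7 and the Con libraries between -50.5 and -23.8. CAC replicate 1 at 6 weeks (57.8) and replicates 1 and 6 at 8 weeks (67.7 and 65) were far out. In that order, they also had the largest median-of-ratios size factors of the 22 libraries (1.47, 1.44 and 1.46). Their mitochondrially encoded shares of TPM were the lowest (33.5%, 35.7% and 34.7%). The component was computed on values as deposited, and the part of scaling in it was not tested. CAC replicate 3 at 8 weeks (-3.14) was nearest to Con. That replicate also held 14681 TPM of haemoglobin transcripts, against 147 to 996 TPM in the other 11 CAC libraries. The median SD of a gene on the log2 scale was 0.258 in CAC and 0.193 in Con at 8 weeks, and 0.216 and 0.151 at 6 weeks. CAC libraries were more widely spread than Con libraries for 67.5% of genes at 8 weeks and 70.2% at 6 weeks. In NCAC the median SD was 0.275 at 6 weeks, the highest of the 12 groups of the series, and 0.149 at 8 weeks. A wide spread was therefore not particular to CAC. Defining myofibre transcripts were abundant throughout, with sums of 52568 to 100276 TPM in CAC libraries, T-lymphocyte markers summed to at most 0.453 TPM in CAC and 3.29 TPM in Con libraries, and albumin did not exceed 3.96 TPM in any CAC library.

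**Figure D1:**
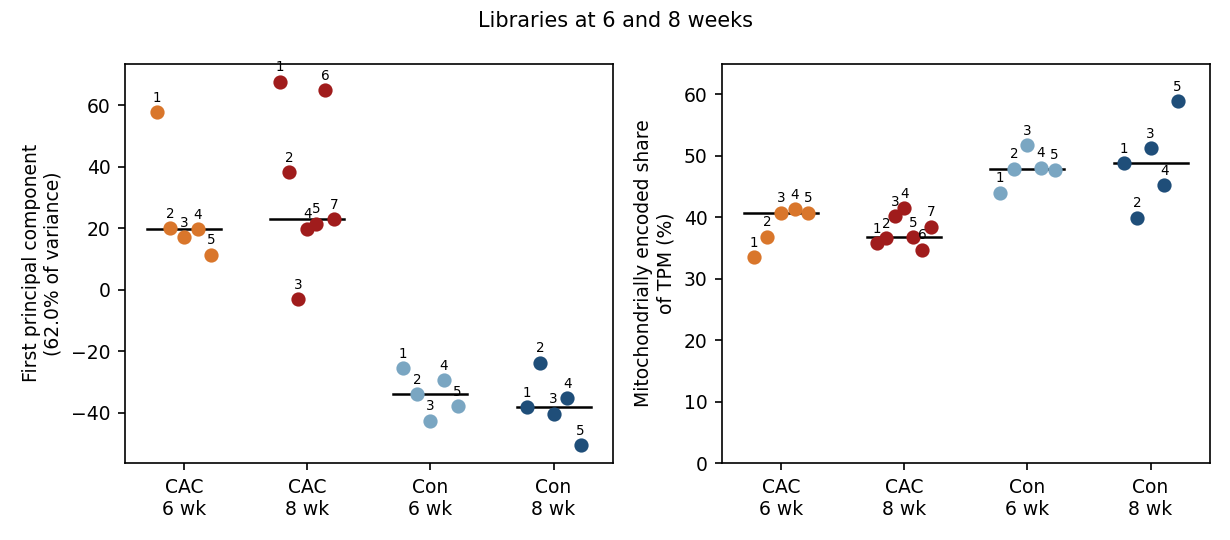
Position of each library on the first principal component (left, no unit) and share of TPM from mitochondrially encoded genes in percent (right), by group at 6 and 8 weeks. Points are libraries numbered by replicate and lines are medians. All CAC libraries lie above all Con libraries on the component, and the 6-week and 8-week CAC libraries overlap on both measures.

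Several of the best-known genes of the cachexia programme averaged far above mock muscle at both weeks. Their spread between animals was wider than the step from 6 to 8 weeks. For some of them CAC values at 8 weeks reached down to the Con level. Among these were the ubiquitin ligase Trim63, below, and Fkbp5, also below, which was at 8.46 TPM in CAC replicate 3 at 8 weeks. Mt2, a metallothionein, was at 3710, 1190, 1826, 528 and 724 TPM in the 5 CAC libraries at 6 weeks. At 8 weeks Mt2 had a median of 2082 TPM, a lowest value of 32.3 TPM in replicate 3 and a highest of 4596 TPM in replicate 6. Con libraries averaged 11.2 ± 6.66 TPM at 6 weeks and 6.70 ± 3.57 TPM at 8 weeks (SD, n = 5 each), so that even the lowest CAC library was above both Con means. The step of Mt2 was 0.12 (SE 1.03, 95% interval -2.09 to 2.34). Without replicate 3 at 8 weeks it was 1.02, and with the replicate number as a block it was -0.33.

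Socs3, the feedback inhibitor of interleukin-6 family receptors, differed less between animals. It was at 50.8, 32.6, 61.4, 34.8 and 42.9 TPM in CAC muscle at 6 weeks. At 8 weeks Socs3 ran from 32.4 to 80.8 TPM with a median of 66.0 TPM, so the groups overlapped, against Con means of 1.54 and 2.13 TPM. Its step was 0.36 (SE 0.24, 95% interval -0.16 to 0.88) in CAC and 0.30 in Con. Stat3, the transcription factor upstream of Socs3, averaged 47.0 ± 17.3 TPM (n = 5) at 6 weeks and 48.8 ± 13.7 TPM (n = 7) at 8 weeks, with Con means of 10.9 and 10.5 TPM, and its interval ran from -0.42 to 0.58. For Stat3, a further doubling or a return to the Con level between the weeks would lie outside this interval.

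The glucocorticoid and ubiquitin ligase genes were the most uneven. Trim63, the muscle ubiquitin ligase MuRF1, was at 1820, 1285, 226, 272 and 411 TPM at 6 weeks. At 8 weeks Trim63 was at 4657 and 2919 TPM in replicates 1 and 6, between 97.0 and 977 TPM in the other 5 CAC libraries, and at a mean of 120 ± 27.0 TPM in Con. Replicates 1 and 6 are also the 8-week libraries far out on the first principal component. Fbxo32, the ubiquitin ligase atrogin-1, ran from 83.4 to 745 TPM at 6 weeks and from 29.2 to 1436 TPM at 8 weeks. Fkbp5, a glucocorticoid-induced chaperone partner, averaged 94.5 ± 50.9 TPM at 6 weeks and 104 ± 57.7 TPM at 8 weeks, against 10.5 and 7.71 TPM in Con. The steps were 0.08 (SE 0.94) for Trim63, -0.12 (SE 0.90) for Fbxo32 and -0.13 (SE 0.61) for Fkbp5, so a step of 1 in either direction lay inside the 95% interval of all 3. Without CAC replicate 3 at 8 weeks the steps of Fbxo32 and Fkbp5 turned positive, at 0.37 and 0.39. Trim63 was at 0.52 without that library and at -0.41 without replicate 1 at 8 weeks.

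Among the acute-phase genes, Serpina3n, a serine protease inhibitor, averaged 133 ± 137 TPM at 6 weeks and 214 ± 221 TPM at 8 weeks against 2.45 and 2.17 TPM in Con. Lcn2, the siderophore-binding lipocalin, averaged 57.5 ± 73.2 and 65.1 ± 46.8 TPM, and Hp, haptoglobin, 102 ± 91.3 and 58.4 ± 31.3 TPM. Cebpd, a transcription factor of the acute phase, averaged 75.9 ± 33.0 TPM at 6 weeks and 157 ± 158 TPM at 8 weeks. In replicate 3 at 8 weeks Serpina3n was at 11.5, Lcn2 at 0.9995 and Hp at 3.40 TPM, the lowest of the 12 CAC libraries for each. Saa3, a serum amyloid, ran from 0.278 to 2.28 TPM at 6 weeks and from 0 to 9.29 TPM at 8 weeks (step 1.14, SE 0.56, unadjusted p = 0.0626 by limma).

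None of a panel of 26 genes chosen for cachexia (ligases, metallothioneins, acute-phase genes, fibre-type genes and respiratory genes) had an unadjusted p under 0.05 in the CAC step, and 13 steps were above 0 and 13 below. Their steps ran from -0.82 for Hp to 0.59 for Cebpd, with SEs from 0.09 to 1.03. The interval stayed within 1 log2 unit of 0 for 11 of the 26. Of the same panel, 22 genes were called in CAC against Con at 6 weeks, 18 at 8 weeks and 18 at both. Over all genes the called shares were 61.9% higher and 3.74% lower at 6 weeks and 64.2% higher and 2.98% lower at 8 weeks, so the panel's 18 of 26 at 8 weeks is near the background. Fbxo32 was called at 6 weeks (adjusted p = 0.0155 by limma) and not at 8 weeks (adjusted p = 0.0783), with log2 differences of 1.56 and 1.65 and a wider spread at 8 weeks. These 3 comparisons share libraries, so they are not separate evidence.

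**Figure D2:**
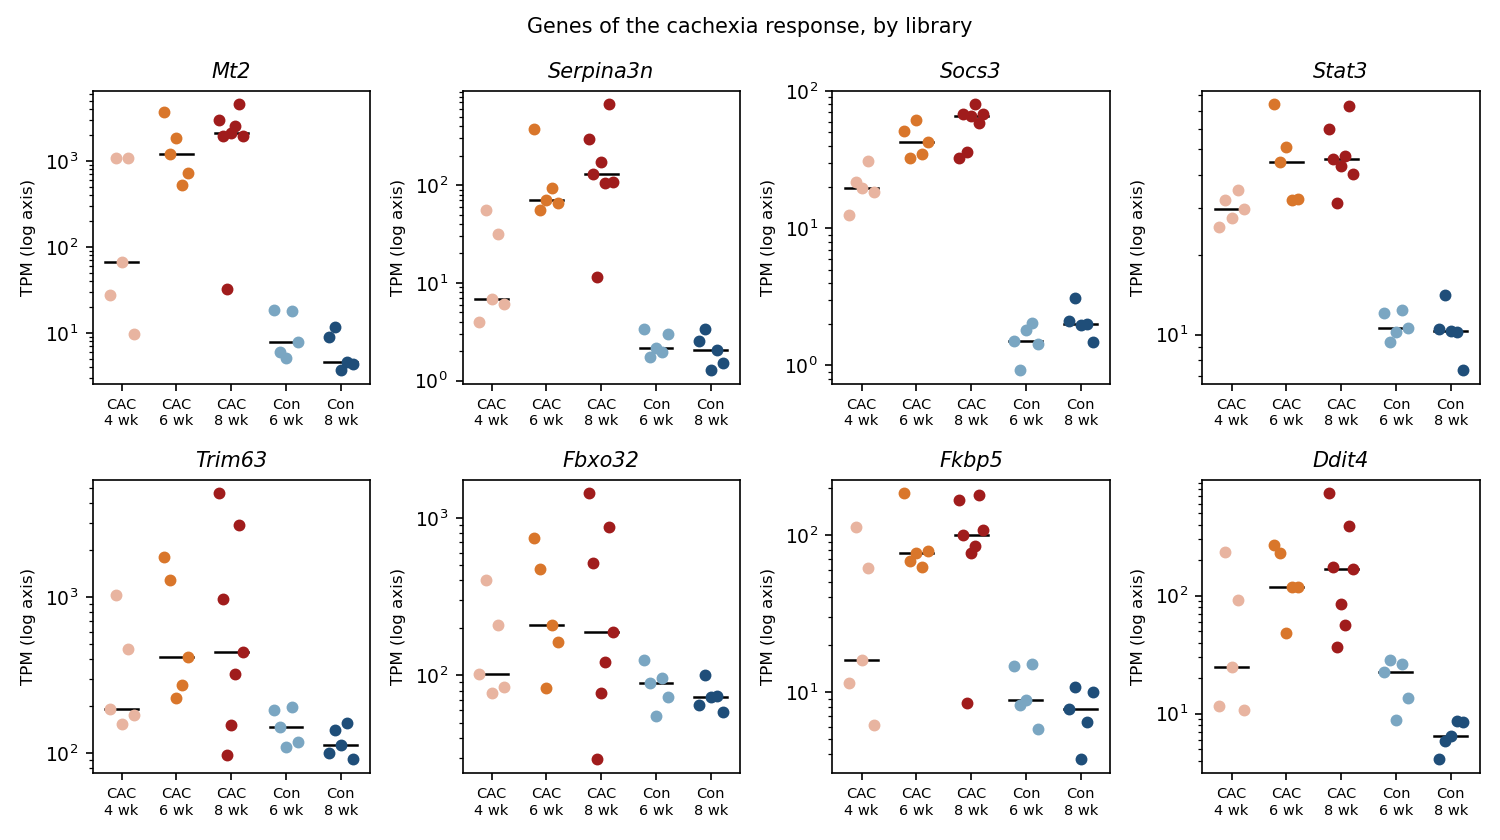
TPM on log axes of 8 genes of the cachexia programme in CAC libraries at 4, 6 and 8 weeks and in Con libraries at 6 and 8 weeks, with medians as lines. The CAC points at 6 and 8 weeks overlap for every gene shown, and Mt2, Serpina3n and Fkbp5 each have 1 low library at 8 weeks, replicate 3.

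Over all genes, none passed the test between 6 and 8 weeks in CAC muscle. Of 11264 genes tested, 0 were called (0%, limma, smallest adjusted p = 0.994), 381 were higher (3.38%) and 88 lower (0.781%) at an unadjusted p under 0.05. If no gene changed, about 563 would be expected under that limit, more than the 469 here. As deposited, the Con step held 483, the NCAC step 225 and the difference of the CAC and Con steps 330. A fit with the shared spread of all 62 libraries called 3 genes and had 738 higher and 173 lower genes at an unadjusted p under 0.05. In that fit Nos1 fell and Hnrnpc rose, each with an adjusted p = 0.0331, and the third gene was the predicted gene Gm7334, which was named after its values were seen.

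The direction of the small steps depended on the scaling. As deposited, 7782 of the 11264 genes had a positive step and 3481 a negative one, the background for the counts by gene list below. The median step of all genes was 0.06 as deposited and 0.00 after rescaling by median-of-ratios size factors, and at an unadjusted p under 0.05 the rescaled fit held 234 higher and 261 lower genes. It called 1 gene, Nos1 (step -0.95, adjusted p = 0.0291 by limma). With the replicate number as a block, which pairs 5 libraries of each week, the unadjusted counts were 841 higher and 226 lower, and 0 genes were called. Without the 3 libraries far out on the first principal component they were 949 and 196, again with 0 called. Leaving out 1 library moved the higher count most without CAC replicate 1 at 6 weeks (852), replicate 2 at 6 weeks (198) and replicate 5 at 6 weeks (198), and the lower count most without replicate 4 at 6 weeks (56). No gene was called in any of these 12 fits.

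The intervals limit how large a step could have been missed. The median SE of a step was 0.14, and the 95% interval stayed within 1 log2 unit of 0 for 10638 genes (94.4%) and within 0.5 for 7233 (64.2%). Steps beyond 1 in size numbered 18, of which 8 were higher and 10 lower. Among them were Scd1 and Lmcd1, whose values follow, and members of families of near-identical copies such as Rps26 and Hba-a2. How reads were divided between such copies is not given in the sources used here. Hba-a2, a haemoglobin gene, averaged 35.8 TPM at 6 weeks and 643 TPM at 8 weeks. The 8-week mean includes replicate 3, with its 14681 TPM of haemoglobin transcripts.

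In the Con step 1 gene was called (0.00888%), with 219 higher (1.94%) and 264 lower (2.34%) at an unadjusted p under 0.05. It was Rps27rt, a retrogene copy of a ribosomal protein gene, which fell from 39.9 ± 7.15 to 14.7 ± 3.81 TPM (n = 5 each, adjusted p = 0.0156 by limma). Since it is nearly identical to Rps27, its level is uncertain. The call ended without Con replicate 3, 4 or 5 at 6 weeks or replicate 2 at 8 weeks, and also with no filter on low values and in the fit of all 62 libraries, whose 4 and 2 calls did not include Rps27rt. The NCAC step called 0 genes (0%, limma), with 225 at an unadjusted p under 0.05, and 0 in the fit of all 62 libraries. After rescaling, the counts at an unadjusted p under 0.05 were 463 higher and 544 lower in the Con step and 582 in the NCAC step. The difference between the CAC and Con steps, tested directly, called 0 genes (0%, smallest adjusted p = 0.9996 by limma), with 261 higher (2.32%) and 69 lower (0.613%) at an unadjusted p under 0.05. It called 0 genes with the NCAC step as reference as well. The higher count was 613 without CAC replicate 1 at 6 weeks, 412 without CAC replicate 3 at 8 weeks and 436 without Con replicate 2 at 8 weeks, and 156, 169, 171 and 152 without CAC replicates 2 and 5 at 6 weeks, Con replicate 4 at 6 weeks and Con replicate 5 at 8 weeks. The lower count was 109 without CAC replicate 3 at 8 weeks, 104 without Con replicate 1 at 6 weeks, 126 without Con replicate 5 at 8 weeks and 33 without Con replicate 2 at 8 weeks.

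The earlier steps of the CAC group, fitted in the same way, called 2 genes from 4 to 6 weeks (0.0178%) and 0 from 2 to 4 weeks (0%, limma). At an unadjusted p under 0.05, the step from 4 to 6 weeks held 4658 higher and 166 lower genes as deposited, against 381 and 88 from 6 to 8 weeks, and 877 higher and 1083 lower after rescaling, with 0 called. The step from 2 to 4 weeks held 756 such genes as deposited and 1061 after rescaling, with 0 called. The step from 4 to 6 weeks shares the 6-week libraries with the one studied here. Set against Con of the same week, 6972 genes were higher (61.9%) and 421 lower (3.74%) at 6 weeks, and 7231 were higher (64.2%) and 336 lower (2.98%) at 8 weeks. After rescaling these counts became 1685 higher (15%) and 1872 lower (16.6%) at 6 weeks and 1692 higher (15%) and 1855 lower (16.5%) at 8 weeks. On the rescaled values 1051 genes were called higher at both weeks, which is 62.4% of the 6-week list and 62.1% of the 8-week list. In the same way, 1270 were called lower at both weeks, 67.8% and 68.5% of the lists.

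**Figure D3:**
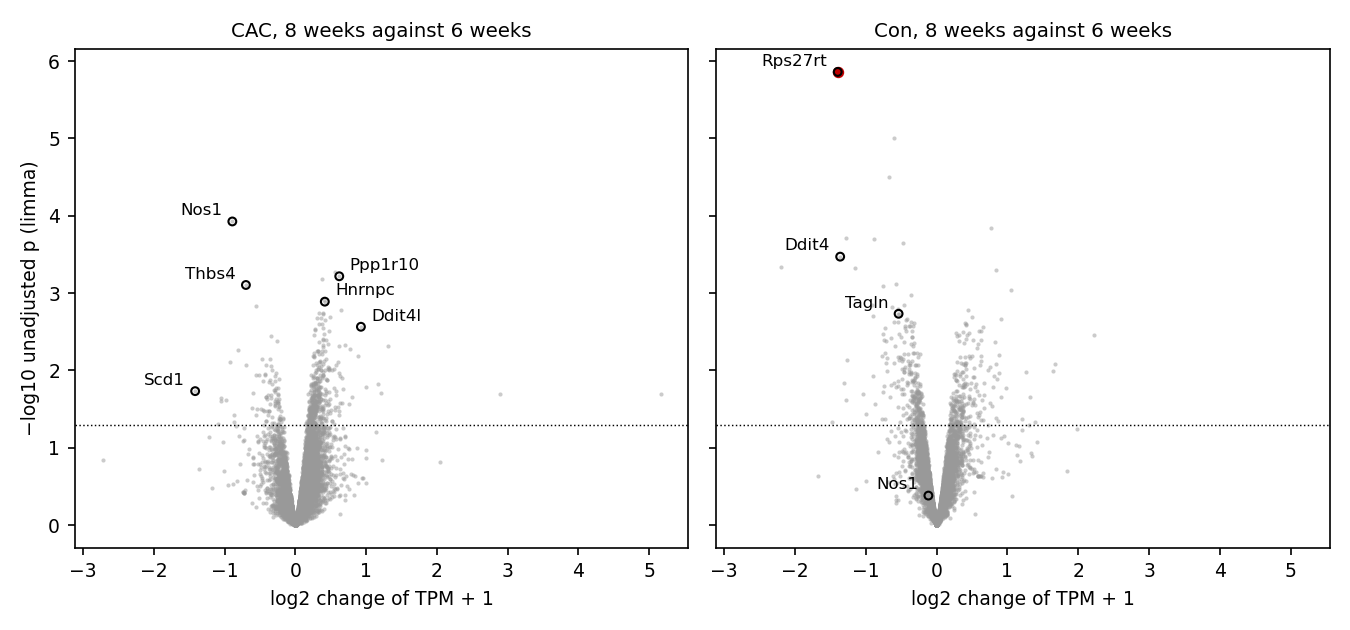
Step of log2(TPM + 1) from 6 to 8 weeks (horizontal) against −log10 of the unadjusted limma p (vertical) for 11264 genes in CAC (left) and Con (right), with a dotted line at the 0.05 level. Named genes are circled, and the filled red point, Rps27rt in Con, is the 1 gene called after adjustment in either panel.

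The gene with the smallest p in the CAC step was Nos1, the neuronal nitric oxide synthase that muscle fibres hold at their membrane with the dystrophin complex (GRCm38 chromosome 5, 117781032 to 117958840, plus strand, GENCODE M21). Nos1 was at 74.7, 43.8, 57.1, 50.9 and 38.5 TPM in CAC muscle at 6 weeks and at 33.7, 26.5, 26, 28.5, 21.7, 34 and 23.7 TPM at 8 weeks. Every 8-week library was below every 6-week library. Its step was -0.89 (SE 0.16, unadjusted p = 0.000119, adjusted p = 0.994 by limma), and it stayed between -0.99 and -0.76 with any 1 library left out. Con libraries averaged 34.1 ± 5.01 and 31.6 ± 6.13 TPM and NCAC libraries 29.1 ± 8.82 and 32.0 ± 6.97 TPM at 6 and 8 weeks. CAC muscle had been at 27.8 TPM at 2 weeks and 25.7 ± 5.62 TPM at 4 weeks, so the 6-week CAC mean was the highest of the 8 group means given here. Nos1 was higher in CAC than Con at 6 weeks (log2 difference 0.59, adjusted p = 0.00897 by limma), and the difference was -0.18 at 8 weeks. For the median gene these differences were 0.38 and 0.46 as deposited, and 0.02 and 0.03 rescaled. The difference between the CAC and Con steps of Nos1 was -0.77 (SE 0.23, unadjusted p = 0.00242 by limma), which did not pass adjustment.

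Among the other lower genes with the smallest p, Thbs4, a matrix thrombospondin of tendon and muscle (chromosome 13, 92751590 to 92794818, minus strand), was at 31.8, 49.7, 44.2, 30.1 and 41.7 TPM at 6 weeks and ran from 17.0 to 30.5 TPM with a median of 24.0 TPM at 8 weeks. The groups met only at their edges, with 2 libraries at 30.1 and 30.5 TPM. The step of Thbs4 was -0.70 (SE 0.16, unadjusted p = 0.000786) in CAC and 0.16 in Con. Thbs4 is on the list of tendon markers, and all 6 measured tendon genes had a negative CAC step, with a median of -0.40 against 0.06 for all genes and 0.21 in Con. The summed tendon markers ran from 51.0 to 102 TPM at 6 weeks and from 31.2 to 75.4 TPM at 8 weeks in CAC. Thbs4 is itself among these 6 genes and in that sum, so these values are not separate from its own step. The part of the tendon markers in the result was not tested. Fmod, a collagen-binding proteoglycan, was at 23.3 ± 11 and 13.3 ± 9.68 TPM, and Tnmd, the tendon membrane protein tenomodulin, at 2.53 ± 0.887 and 1.64 ± 0.917 TPM (unadjusted p = 0.0516 and 0.0709 by limma).

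Acsl6, which activates long-chain fatty acids, averaged 11.8 ± 2.30 TPM at 6 weeks and 7.69 ± 1.2 TPM at 8 weeks (step -0.55, unadjusted p = 0.00149 by limma). Like Nos1, it was at Con and earlier CAC levels at 8 weeks as deposited, with 7.88 and 7.71 TPM in Con. CAC muscle had been at 7.25 and 7.48 TPM at 2 and 4 weeks. On the deposited scale the median gene was 0.46 log2 units higher in CAC than Con at 8 weeks, against 0.03 rescaled. Fam57b, a membrane protein linked to ceramide synthesis, averaged 38.1 ± 8.44 and 22.1 ± 7.44 TPM (step -0.81, SE 0.24) against 50.9 and 42.4 TPM in Con. Coq10a, a coenzyme Q-binding protein of mitochondria, averaged 236 ± 16.9 and 189 ± 25.4 TPM against 259 and 255 TPM in Con, and 1 of the 7 later libraries, replicate 1, reached the range of the 6-week ones. Lysmd1 and Prrx1, a homeobox factor of connective tissue cells, did not overlap between the weeks: Lysmd1 was at 8.77 to 11.2 TPM and then 6.09 to 8.73 TPM, Prrx1 at 13.4 to 18.0 TPM and then 9.58 to 13.4 TPM. Genes that did not overlap numbered 6 lower (0.0533%) and 23 higher (0.204%) in CAC, and 48 lower (0.426%) and 32 higher (0.284%) in Con. These shares are not alike, since 7 against 5 libraries have 792 arrangements and 5 against 5 have 252. Chance alone therefore separates more genes in Con. The remaining genes of this rank were Zfp27, a zinc finger protein (6.73 to 3.09 TPM), Hspa13, a heat shock family member of microsomes (7.29 to 4.84 TPM), and Myoc, the secreted protein myocilin (22.1 to 13.9 TPM). The unadjusted p of these 3 ran from 0.000595 to 0.00852.

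Among the higher genes the smallest p was that of Ppp1r10, a nuclear subunit that directs protein phosphatase 1 (chromosome 17, 35916434 to 35932283, plus strand). It was at 4.27, 6.32, 6.19, 6.48 and 5.52 TPM at 6 weeks and at 7.51, 12.9, 8.69, 10.03, 8.88, 7.46 and 10.7 TPM at 8 weeks, with no overlap. Its step was 0.62 (SE 0.14, unadjusted p = 0.000606) against -0.26 in Con, and the difference of the steps was 0.88 (SE 0.21, unadjusted p = 0.000439, adjusted p = 0.9996 by limma). Hnrnpc, a core protein of nuclear ribonucleoprotein particles (chromosome 14, 52073377 to 52104028, minus strand), was at 42.1, 32.5, 40.4, 38.0 and 32.1 TPM and then at 50.3, 46.9, 56.0, 55.4, 48.5, 43.9 and 46.2 TPM. All 7 values were above all 5, and Con stood at 31.9 ± 0.862 and 33.4 ± 3.96 TPM. Its step was 0.42 (SE 0.10, unadjusted p = 0.00129) in CAC and 0.06 in Con.

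Rpp21, a protein subunit of ribonuclease P, was at 14.5 to 19.2 TPM at 6 weeks and at 19.4 to 23.6 TPM at 8 weeks. Xpo1, the main nuclear export receptor, was at 7.58 to 8.80 TPM and then at 9.11 to 13.3 TPM. Hoxc9, a homeobox factor, went from 4.16 to 5.00 TPM at 6 weeks to between 5.09 and 7.89 TPM at 8 weeks, and Kansl1l and Tmcc2 did not overlap either. Their steps lay between 0.33 for Tmcc2 and 0.42 for Kansl1l, with a largest unadjusted p of 0.00249 among these 5. Atxn1, the transcriptional repressor ataxin-1 (6.25 ± 1.15 to 9.12 ± 1.25 TPM), and Rasip1, a Ras-interacting protein of blood vessels (13.7 ± 1.74 to 18.4 ± 2.24 TPM), overlapped slightly.

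The largest step among these 10 genes was that of Ddit4l, an inhibitor of the growth kinase complex mTORC1 in muscle (chromosome 3, 137621612 to 137628333, plus strand). It was at 76.7, 71.1, 54.7, 44.3 and 63.2 TPM at 6 weeks and at 139, 83.5, 147, 130, 174, 133 and 57.1 TPM at 8 weeks. Of the 7 later libraries, 6 were above the highest at 6 weeks and replicate 7 was within the earlier range. Ddit4l had a step of 0.93 (SE 0.25, unadjusted p = 0.00272) against -0.34 in Con, where it averaged 98.7 ± 39.8 and 76.7 ± 24.8 TPM. Against Con, CAC muscle was 0.60 lower on the log2 scale at 6 weeks (adjusted p = 0.0475 by limma) and 0.67 higher at 8 weeks (adjusted p = 0.0489). These values are as deposited, where the median gene was higher in CAC by 0.38 at 6 weeks and 0.46 at 8 weeks. After rescaling those medians were 0.02 and 0.03. CAC muscle held 120 TPM at 2 weeks and 84.2 TPM at 4 weeks, so 6 weeks was the lowest of the 4 CAC means.

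**Figure D4:**
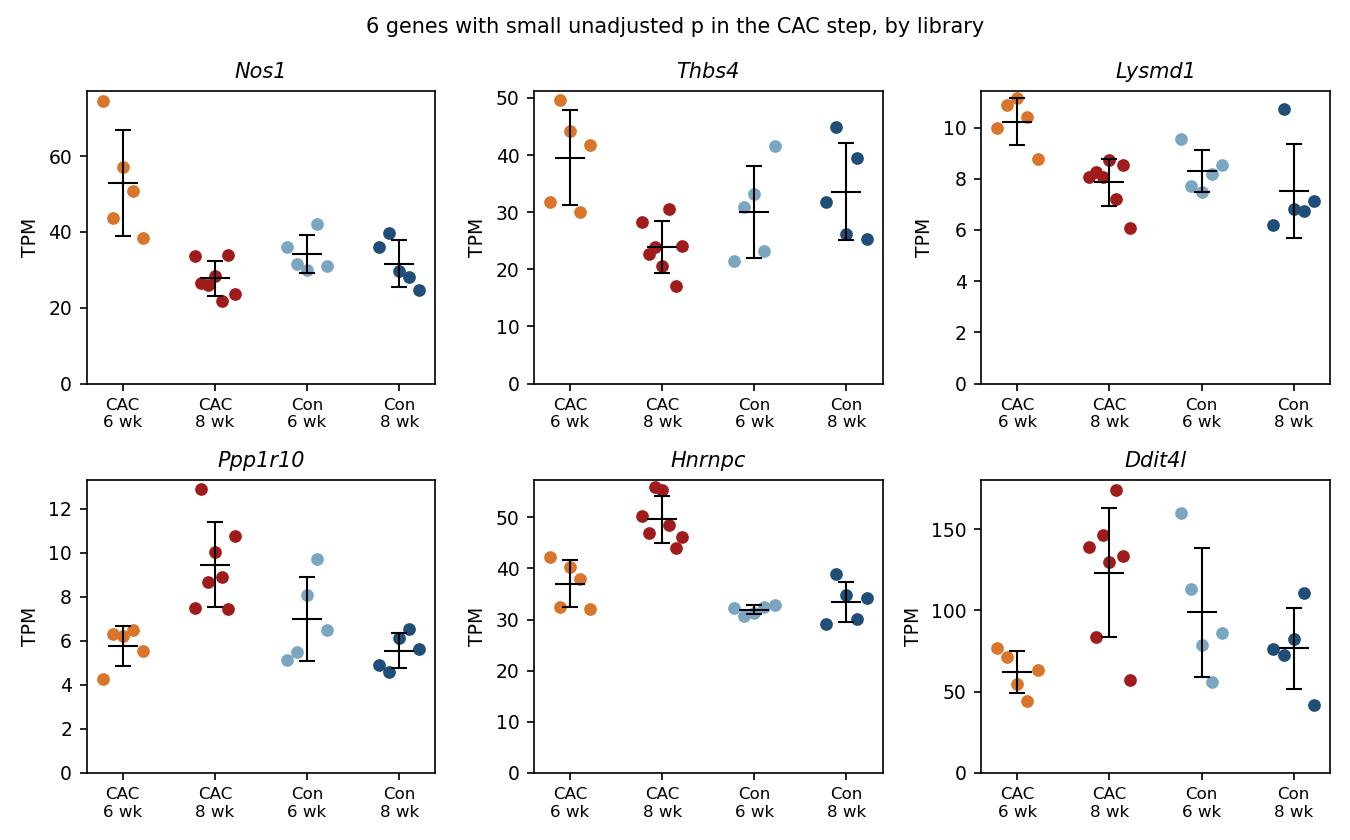
TPM of 6 genes with small unadjusted p by library in CAC and Con at 6 and 8 weeks, with mean and SD (bars). Nos1, Lysmd1, Ppp1r10 and Hnrnpc do not overlap between the CAC weeks, Thbs4 and Ddit4l do, and the Con weeks overlap for all 6.

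Of 33 measured genes of pyruvate oxidation and the tricarboxylic acid cycle, 26 had a negative CAC step, with a median of -0.16 (-0.23 rescaled) against 0.06 for all genes and -0.03 for the list in Con. At an unadjusted p under 0.05, 2 were lower and 0 higher as deposited, and 6 were lower after rescaling. Ogdh, a subunit of the 2-oxoglutarate dehydrogenase of that cycle, averaged 417 ± 21.5 and 352 ± 37.1 TPM in CAC (step -0.25, SE 0.09) and 470 and 406 TPM in Con (step -0.22). The difference between the CAC and Con steps of Ogdh was -0.03.

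Of 75 nuclear-encoded subunits of oxidative phosphorylation, 57 had a negative step with a median of -0.05 in CAC and -0.04 in Con, and 1 was lower at an unadjusted p under 0.05 (2 after rescaling). As deposited it was Ndufv1, a core subunit of complex I (306 ± 16.2 to 255 ± 32.9 TPM, step -0.27). All 75 intervals stayed within 1 log2 unit of 0. Ndufs1, another core subunit of complex I, was at 154 ± 20.03 and 136 ± 28.5 TPM against 228 and 239 TPM in Con, and Mdh1, the cytosolic malate dehydrogenase, at 374 ± 57.6 and 316 ± 70.7 TPM against 533 and 577 TPM. The share of TPM from mitochondrially encoded genes was 38.6% ± 3.39 (n = 5) at 6 weeks and 37.7% ± 2.43 (n = 7) at 8 weeks. That difference of -0.911 percentage points did not pass an exact two-sided permutation test (p = 0.582, 792 arrangements). In Con the share was 47.9% ± 2.74 and 48.8% ± 7.07 (n = 5 each, exact permutation p = 0.770).

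Genes of glucose and glycogen use also had mostly negative steps. Of 33 genes of glycolysis and glycogen 25 had a negative step (median -0.14, Con -0.06), with 1 higher and 2 lower at an unadjusted p under 0.05. Gys1, the glycogen synthase of muscle, averaged 450 ± 48.0 and 368 ± 37.5 TPM (step -0.29, SE 0.10) against 351 and 335 TPM in Con. Slc2a4, the insulin-regulated glucose transporter, averaged 414 ± 35.1 and 365 ± 10.1 TPM against 318 and 315 TPM. For both, CAC muscle at 8 weeks was nearer to the Con mean than at 6 weeks as deposited. On that scale the median gene was higher in CAC than Con by 0.38 log2 units at 6 weeks and 0.46 at 8 weeks. After rescaling these medians were 0.02 and 0.03, so the nearness to Con depends on the scaling. Among 35 genes of fatty acid uptake and oxidation 21 were negative (median -0.02, Con -0.14), including Acadvl, the very-long-chain acyl-CoA dehydrogenase, at 242 ± 13.9 and 206 ± 19.2 TPM. Pdk4, the kinase that blocks pyruvate oxidation during fasting, averaged 755 ± 453 and 1307 ± 1522 TPM, with 4201 TPM in replicate 1 and 2527 TPM in replicate 6 at 8 weeks.

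The 27 measured genes of lipid droplets, lipolysis and ketone use had a median step of -0.06 in CAC and -0.13 in Con. In CAC 21 were negative, and 2 were lower and 0 higher at an unadjusted p under 0.05. Scd1, the stearoyl-CoA desaturase, was at 41.2, 14.6, 41.0, 146 and 70.4 TPM at 6 weeks and ran from 7.47 to 49.0 TPM with a median of 14.9 TPM at 8 weeks. Its step was -1.41 (SE 0.53, unadjusted p = 0.0185 by limma), and Con averaged 12.3 and 11.6 TPM. Plin1, the lipid droplet coat protein of adipocytes, averaged 2.75 ± 1.97 and 1.24 ± 0.395 TPM, and Adipoq, the adipocyte hormone adiponectin, 19.5 ± 13.9 and 10.3 ± 4.61 TPM, against 3.28 and 3.23 TPM in Con. In replicates 4 and 5 at 6 weeks all 3 were highest. Of 8 measured white adipocyte markers, 7 had a negative CAC step (median -0.39, Con -0.11), and their sum, most of it Car3, which muscle also expresses, ran from 1014 to 2743 TPM at 6 weeks and from 999 to 4266 TPM at 8 weeks. The part of the amount of fat tissue in the step of Scd1 was not tested, and in whole muscle fewer cells of a type and less RNA per cell cannot be told apart.

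In protein synthesis and turnover the steps were small and mixed. Of 76 cytosolic ribosomal protein genes 71 had a positive step, with a median of 0.17 as deposited, 0.10 rescaled and -0.03 in Con. At an unadjusted p under 0.05 the list had 1 higher and 0 lower, Rps12 (442 ± 122 to 553 ± 32.7 TPM). Rplp1, a stalk protein of the large subunit, averaged 2045 ± 125 and 2475 ± 435 TPM against 1232 and 1130 TPM in Con. Of 35 proteasome subunits 28 had a negative step (median -0.07, 0 past an unadjusted p of 0.05), and all 35 intervals stayed within 1 log2 unit of 0. The 38 genes of autophagy and lysosome had a median of 0.05, which turned to -0.02 after rescaling, and 0 past that threshold. Among 30 genes of atrophy ubiquitin ligases and their partners 14 steps were positive and 16 negative. The 1 past an unadjusted p of 0.05 was Nedd4l, a ubiquitin ligase of membrane proteins (5.18 ± 1.05 to 7.39 ± 1.59 TPM, Con 3.64 and 3.30 TPM).

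Of 24 genes of endoplasmic reticulum stress and chaperones, 20 had a negative step, with a median of -0.09 (-0.15 rescaled) against -0.01 in Con, and 2 were lower at an unadjusted p under 0.05 (4 after rescaling). Hspa5, the main chaperone BiP, was at 190, 132, 108, 134 and 111 TPM at 6 weeks and at 138, 101, 60.3, 90.3, 92.6, 114 and 93.2 TPM at 8 weeks, with Con means of 73.4 and 74.0 TPM. Its step was -0.46 (SE 0.19). Hspa5 was higher in CAC than in Con at 6 weeks by 0.85 (adjusted p = 0.00131 by limma) and by 0.38 at 8 weeks (adjusted p = 0.0598). The median gene was higher by 0.38 at 6 weeks and 0.46 at 8 weeks on the same deposited scale. Manf, a secreted stress factor of that compartment, averaged 11.3 ± 3.52 and 8.31 ± 1.23 TPM against 5.56 and 5.74 TPM.

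The zinc exporter Slc30a1, a target of the metal-sensing factor that also drives metallothioneins, averaged 6.72 ± 2.14 TPM at 6 weeks and 10.2 ± 2.99 TPM at 8 weeks (step 0.54, SE 0.20, unadjusted p = 0.0171), against 4.29 and 4.05 TPM in Con. Of 19 metallothionein and zinc transporter genes 13 steps were positive, with a median of 0.06, equal to that of all genes, and 2 were higher at an unadjusted p under 0.05 (1 after rescaling). Mt1 averaged 1705 ± 1496 and 2309 ± 1536 TPM. Of 30 genes in the interleukin-6 and acute-phase group, 28 had a positive step (median 0.17, 0.10 rescaled, -0.05 in Con), and 0 passed an unadjusted p of 0.05 in either direction. The 21 genes already higher in CAC than Con at 4 weeks (0.186% of those tested), an earlier contrast that shares no library with the step, had a median of 0.15 with 16 positive, and 0 passed the same threshold. Over all 11264 genes 7782 steps were positive.

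Among the groups with at least 10 measured genes, the glucocorticoid-induced genes had the widest gap between the CAC and Con steps. In Con the 29 measured genes had a median step of -0.39, and 10 were lower at an unadjusted p under 0.05, against 2.34% of all genes. In CAC the median was 0.16 with 20 positive, as were 7782 of all 11264 genes. The median difference of the steps was 0.65, against 0.08 for all genes. At an unadjusted p under 0.05 that difference was higher for 2 genes and lower for 0. Ddit4, a glucocorticoid-induced inhibitor of mTORC1, was at 19.9 ± 8.45 and 6.73 ± 1.93 TPM in Con (step -1.36, unadjusted p = 0.000338) and at 157 ± 90.6 and 236 ± 253 TPM in CAC (step 0.15, SE 0.69). Dusp1, a phosphatase of stress kinases, had a CAC step of 0.75 (SE 0.43) and a Con step of -0.27. In CAC it ran from 25.7 to 58.5 TPM at 6 weeks. At 8 weeks Dusp1 was at 67.8, 135, 36.9, 36.6, 33.7, 31.7 and 163 TPM, so most of the later libraries lay in the 6-week range.

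Several of the genes with the smallest p in the difference of the steps had opposite signs in CAC and Con. Rhob, a small GTPase of the actin cytoskeleton, averaged 53.4 ± 15.5 and 72.7 ± 20.7 TPM in CAC and 25.0 ± 6.34 and 16.0 ± 2.67 TPM in Con (difference 1.02, unadjusted p = 0.00327 by limma). Nfkbia, the inhibitor of NF-kB, averaged 50.1 ± 9.14 and 67.9 ± 20.1 TPM in CAC and 30.3 ± 6.6 and 21.3 ± 1.66 TPM in Con (difference 0.86). Lonrf1, a RING finger protein (difference 1.00), and Tppp, which promotes tubulin assembly (difference 0.54), went the same way, and the 8-week CAC values of Tppp, from 7.18 to 9.92 TPM, were all above the 6-week maximum of 7.11 TPM. Lmcd1, a LIM domain protein of muscle, was at 184, 354, 470, 335 and 358 TPM at 6 weeks and between 97.9 and 168 TPM in 6 libraries at 8 weeks, with 620 TPM in replicate 7. Its CAC step was -1.04 (SE 0.40, unadjusted p = 0.0227), -1.37 without that library, and its Con step was 0.36. Nkiras1, an inhibitor of NF-kB signalling, averaged 17.9 ± 3.30 and 13.1 ± 3.59 TPM in CAC and 14.6 ± 1.74 and 18.1 ± 1.26 TPM in Con (difference -0.73, unadjusted p = 0.0034). None of these differences passed adjustment.

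Contractile genes showed no common step. The 21 fast-fibre genes had a median of -0.02 with 9 positive and 12 negative and 0 past an unadjusted p of 0.05, and the 24 slow-fibre and cardiac-type genes a median of -0.06 with 0 past it. Myh4, the myosin of the fastest fibres, averaged 13182 ± 2649 and 10342 ± 2111 TPM (step -0.35, unadjusted p = 0.0541) against 8941 and 8226 TPM in Con. Myh2, the myosin of fast oxidative fibres, was at 141 to 271 TPM at 6 weeks and spread from 24.1 to 866 TPM at 8 weeks, while the step in Con was 0.84. Myh1, the fast myosin between these, averaged 4665 ± 413 and 5577 ± 2512 TPM. Actc1, cardiac actin, was at 10.7 ± 3.91 and 8.32 ± 6.67 TPM against 84.5 ± 57.2 and 134 ± 145 TPM in Con, with a lowest value of 1.35 TPM in replicate 1 at 8 weeks. Mstn, myostatin, the secreted brake on muscle growth, averaged 41.9 ± 14.9 and 41.4 ± 15.7 TPM, and Ppargc1a, the coactivator of mitochondrial biogenesis, 16.9 ± 2.51 and 18.0 ± 7.97 TPM.

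Of 23 genes of the neuromuscular junction and denervation 17 were positive (median 0.17, Con 0.02), and 1 was higher at an unadjusted p under 0.05, Agrn, the synapse organiser agrin (5.96 ± 0.430 to 7.16 ± 0.637 TPM). After rescaling 0 were. Over all genes as deposited, 7782 of 11264 steps were positive. The 7 Schwann cell and nerve markers had a median step of -0.24, with 5 negative and 0 past an unadjusted p of 0.05. Of 29 genes of the dystrophin complex and membrane repair 21 were positive (median 0.10), with 1 higher and 1 lower, Nos1, at that threshold. Sln, the calcium pump regulator sarcolipin, averaged 18.2 ± 13.3 and 33.1 ± 23.3 TPM against 2.31 and 2.63 TPM in Con. Utrn, the dystrophin relative utrophin, was at 8.27 ± 0.671 and 9.53 ± 1.09 TPM, and Ahnak, a large protein of membrane repair, at 62.3 ± 8.84 and 75.9 ± 7.92 TPM against 35.9 and 33.7 TPM. All 10 endothelial markers had a positive step (median 0.14, 0.08 rescaled, -0.13 in Con), with 2 higher at an unadjusted p under 0.05, Pecam1 (61.4 ± 8.68 to 74.8 ± 9.98 TPM) and Egfl7 (34.5 ± 3.05 to 41.4 ± 4.94 TPM). After rescaling 0 of the 10 passed that threshold. Their sum ran from 237 to 316 TPM at 6 weeks and from 283 to 368 TPM at 8 weeks, against 142 to 211 TPM in Con. Of 9 pericyte and smooth muscle markers, 5 were lower in the Con step at an unadjusted p under 0.05 (2.34% of all genes), among them Tagln, an actin-binding protein of smooth muscle (40.4 ± 4.46 to 27.9 ± 5.20 TPM). In CAC Tagln was at 91.5 ± 11.8 and 98.5 ± 17.9 TPM and Acta2, smooth muscle actin, at 79.9 ± 14.1 and 76.4 ± 23.2 TPM.

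All 9 macrophage and monocyte markers had a positive step in CAC (median 0.31), with 0 past an unadjusted p of 0.05. In Con their median step was 0.29, with 3 higher and 1 lower at an unadjusted p under 0.05. C1qb, a complement protein made by macrophages, averaged 18.0 ± 4.82 and 25.8 ± 11.1 TPM in CAC and 4.79 ± 1.27 and 8.12 ± 3.52 TPM in Con. Genes of MHC and antigen presentation had a median step of 0.17 in CAC, with 14 of 15 positive, and 0.47 in Con. B2m, the light chain of MHC class I, was at 211 ± 17.8 and 243 ± 12.8 TPM in CAC and at 171 ± 20.6 and 254 ± 77.7 TPM in Con. Ighm, the immunoglobulin M heavy chain of B cells, averaged 12.1 and 6.22 TPM in CAC with a highest 8-week value of 17.8 TPM in replicate 3 (step -1.10, unadjusted p = 0.0498 by limma). The clock gene Per2 averaged 8.97 ± 3.03 and 12.5 ± 2.20 TPM in CAC and 7.14 and 5.87 TPM in Con, and the 22 measured clock genes had median steps of 0.17 and -0.14. The labels give no time of day of dissection. The growth regulator Myc was at 7.65 ± 2.07 and 10.1 ± 4.07 TPM.

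**Figure D5:**
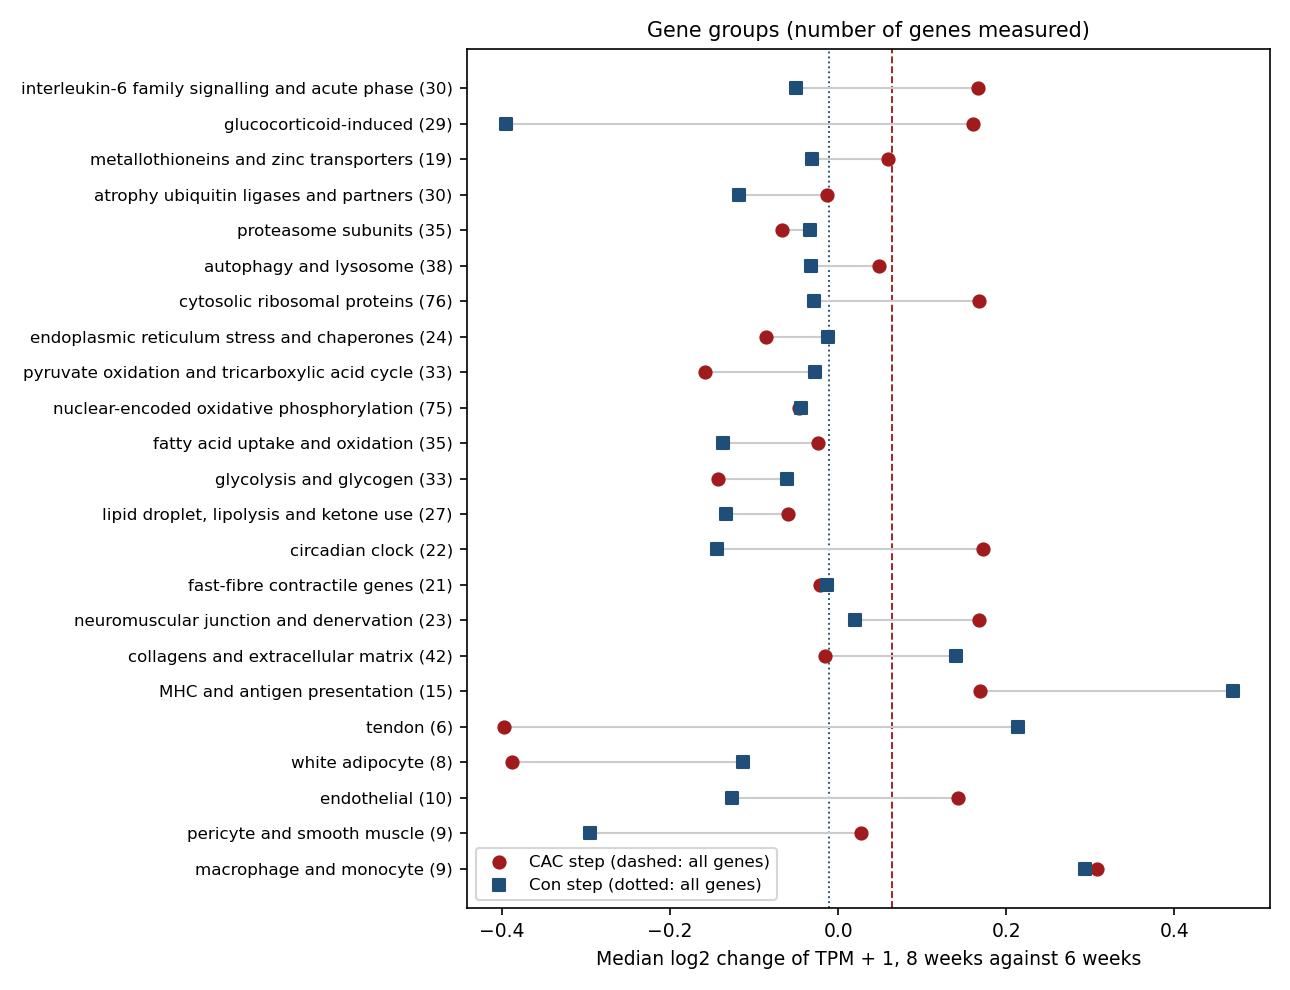
Median step of log2(TPM + 1) from 6 to 8 weeks for 23 gene groups in CAC (circles) and Con (squares), with the number of measured genes in brackets and the medians of all genes as vertical lines. The gap between circle and square is widest for the tendon group (-0.40 in CAC, 0.21 in Con) and next widest for the glucocorticoid-induced group (0.16 and -0.39).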

How the data were processed

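Libraries of tibialis anterior RNA were prepared with a stranded mRNA kit for Illumina sequencing, per the labels' protocols. A single table, deposited by the authors, holds TPM for 47643 gene symbols in 62 libraries, and every column sums to 1000000. The submitters' processing notes name the build mm10. Aligner, counter and annotation: not given in the sources used here. TPM keeps no read depth, and a lower mitochondrial share raises all other genes.

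Genes that averaged 1 TPM or more over the 22 CAC and Con libraries at 6 and 8 weeks were kept (11264). Values of log2(TPM + 1) were fitted with limma 3.58.1 in R 4.3.3 (empirical Bayes with trend), with Benjamini-Hochberg adjustment over all genes kept. Each contrast was fitted on its own groups because CAC libraries were more widely spread than Con libraries. The code was tested on simulated data. Positions are those of GENCODE M21 (GRCm38), where 85 of 85 named symbols matched. Plots used Python 3.11.15 and matplotlib 3.10.9. No correlation was tested and no list was given a p.

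Replicate numbers come from the labels' descriptions, which do not say that a number marks a shared litter, batch or day, while the titles number the animals separately. Deviations of same-numbered CAC libraries from their group means correlated at 0.19 to 0.68 in 5 of 5 pairs, so the fit with the replicate block is given beside the counts it moves. The groups' members and the gene lists were chosen with earlier results of these data known. Named genes were, in the CAC step and in the difference of steps, the 10 called with the largest change in each direction, filled up by smallest unadjusted p (5 TPM or more on average in the group with the higher level, no predicted, clone or pseudogene symbols), up to 4 members of each list with the smallest p, and a panel of 26 genes. The text does not print all of them, and 1 is not reported here. Alternatives were a pseudocount of 0.1, no filter, median-of-ratios rescaling, removal of mitochondrially encoded genes, all 62 libraries in 1 fit, the replicate block, robust moderation, group variance weights, NCAC as reference, and leaving out libraries. The fit without 3 libraries was added after seeing the data.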

Additional observations from a re-analysis of the deposited data

Results flagged for a closer look

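In 24 of 348 groups of values checked, the highest or lowest library was separated from its nearest neighbour by more than a 95% limit on the group's range. Chance alone flags about 1 in 20 groups. Of the 24, 6 came from CAC replicate 3 at 8 weeks and 5 from CAC replicate 1 at 6 weeks.

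CAC replicate 3 at 8 weeks was the low library for Mt1 (64.64 TPM, next 1853), Mt2 (32.31 TPM, next 1925), Lcn2 (0.9995 TPM, next 30.74), Hp (3.398 TPM, next 43.5) and Fkbp5 (8.462 TPM, next 76.95). It was the high library for summed haemoglobin (14680 TPM, next 995.9). CAC replicate 1 at 6 weeks was the high library for Serpina3n (376.9 TPM, next 93.77), Fkbp5 (184.8 TPM, next 78.92) and Saa3 (2.277 TPM, next 0.6561). It was the low library for Ndufs1 (118.8 TPM, next 157.4) and Cox7a1 (393.1 TPM, next 659.5). At 8 weeks CAC replicate 6 was low for mt-Co1 (57050 TPM, next 63530) and CAC replicate 7 was high for Lmcd1 (619.6 TPM, next 167.7).

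Among Con libraries at 8 weeks, replicate 2 was high for Lysmd1 (10.73 TPM, next 7.139), replicate 3 was low for Rps26 (0.09389 TPM, next 308.9), and replicate 5 was low for Tagln (18.96 TPM, next 27.6), Acta2 (12.93 TPM, next 31.22) and Rplp1 (830.9 TPM, next 1163). At 6 weeks Con replicate 4 was high for Mt1 (59.46 TPM, next 33.26) and low for Adipoq (1.007 TPM, next 3.417). Con replicate 5 was high for Hp (6.499 TPM, next 1.126) and Saa3 (2.875 TPM, next 0.4314), and Con replicate 1 for Cdkn1a (30.48 TPM, next 9.46) and Manf (6.371 TPM, next 5.462).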

How the results depend on the processing

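Of 2080 values of 85 named genes under the alternatives, 2004 kept their direction and side of the threshold, 73 changed sign and 3 newly passed, and 69 genes never changed sign. None of these genes was called in the main CAC step or difference, and many were picked for a small p in these data. A kept side or sign is therefore not separate support. Newly past were Nos1 after rescaling (-0.95, adjusted p = 0.0291 by limma) and in the fit of all 62 libraries (adjusted p = 0.0331), and Hnrnpc in that fit (0.0331). The cause of the changes below was not tested. The CAC step called 0 genes with a pseudocount of 0.1, no filter, no mitochondrially encoded genes, the replicate block or robust moderation, 0 higher and 1 lower after rescaling, and 2 higher and 1 lower with all 62 libraries. Counts at an unadjusted p under 0.05 are given as higher, then lower.

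For the CAC step they were 747 and 238 with no filter (21563 genes), 234 and 261 after rescaling, 738 and 173 with all 62 libraries, 524 and 116 without the haemoglobin-rich library, and 949 and 196 without the 3 outlying libraries. With 1 library left out they ran from 198 to 852 and from 56 to 117. For the difference of steps they were 437 and 264 with no filter, 200 and 212 after rescaling, 212 and 139 without mitochondrially encoded genes, 166 and 108 with NCAC as reference, 412 and 109 without the haemoglobin-rich library, and 557 and 128 without the 3 outlying libraries. With 1 library left out they ran from 152 to 613 and from 33 to 126. The Con step called 4 genes with no filter, 3 without mitochondrially encoded genes, 2 with all 62 libraries, 2 with robust moderation, and 0 to 3 with 1 library left out. The NCAC step called 0 to 1. The CAC difference in mitochondrial share ran from -2.20 to -0.237 and the Con difference from -1.61 to 3.14 with 1 library left out.

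With the replicate block the CAC counts were 841 and 226. The block turned the CAC step of Mt1 to -0.26, Mt2 to -0.33, Stat3 to -0.003127, Serpina3n to -0.022, Lcn2 to -0.245, Trim63 to -0.29, Ddit4 to -0.17, Pdk4 to -0.061, Myh1 to -0.11 and Myh2 to -0.17. It changed no call of the CAC step. Same-numbered Con and NCAC libraries correlated at -0.209 to 0.240 and -0.062 to 0.056, and for them, as for CAC, the labels give only the number.

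Without the haemoglobin-rich library the step was 0.37 for Fbxo32, 0.28 for Cdkn1a, 0.39 for Fkbp5, 0.13 for Mstn and 0.071 for Ppargc1a. Without the 3 outlying libraries it was -0.00413 for Mt1, -0.058 for Mt2, -0.55 for Trim63, -0.34 for Ddit4, -0.365 for Pdk4, -0.13 for Myh1 and 0.062 for Acta2.

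With 1 library left out the steps ran from -0.37 to 0.28 for Cdkn1a, -0.24 to 0.48 for Ddit4, -0.56 to 0.37 for Fbxo32, -0.32 to 0.39 for Fkbp5, -0.22 to 0.87 for Lcn2, -0.25 to 0.13 for Mstn, -0.14 to 0.91 for Mt1, -0.19 to 1.02 for Mt2, -0.029 to 0.30 for Myh1, -0.33 to 0.61 for Pdk4, -0.14 to 0.10 for Ppargc1a, -0.036 to 0.26 for Stat3 and -0.41 to 0.52 for Trim63. A planned fit without libraries over 100 TPM of albumin was not run, since the highest CAC value was 3.96 TPM. TPM holds no depth, so counting error could not be set beside the spread.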

Other observations

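Rps26, a protein of the small ribosomal subunit, and its near-identical copy Rps26-ps1 were singled out after their values were seen. In CAC muscle at 6 weeks Rps26 ran from 495.9 to 806 TPM in all 5 libraries, and Rps26-ps1 did not exceed 0.481 TPM. At 8 weeks Rps26 was at 815.9, 0, 618.6, 0.2083, 325.8, 368 and 643.1 TPM, and Rps26-ps1 at 0.1265, 836, 0, 966.6, 400.2, 442.9 and 0.2487 TPM. The libraries with little or no Rps26 were those with the most Rps26-ps1, and the sums of both, 618.6 to 966.8 TPM, overlapped the 6-week sums of 496.4 to 806.4 TPM. Over all 62 libraries Rps26 was under 10 TPM in 4, Rps26-ps1 was under 10 TPM in 44, and both were at 10 TPM or more in 14. The step was -2.72 for Rps26 and 5.16 for Rps26-ps1, the largest in each direction of the genes tested, and neither passed adjustment by limma.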
